A study of Mus musculus with 56 samples.

Results

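The p300 sites described here were those that appeared in bone marrow-derived macrophages (BMDMs) within 1 hr of IL-4. Overlapping p300 peaks (by at least 1 bp) of 2 untreated samples (ctrl) and 2 samples given IL-4 for 1 hr (1hIL4) were merged into 81230 regions. A region was called gained when it held a peak in both 1hIL4 samples and in neither ctrl sample, which 7394 regions (9.10% of all) did. All cells came from wild-type C57BL/6 mice of 8 to 12 weeks, whose marrow was differentiated for 6 days with L929 supernatant. IL-4 was given at 20 ng/ml. The series held 56 ChIP-seq samples of 9 antibodies, 2 per antibody and condition, and the macrophages were cross-linked with DSG and formaldehyde. In a second experiment of the series, BMDMs received IL-4 for 24 hr or no IL-4, followed by 1 hr of LPS at 100 ng/ml or no LPS. Every sample was a culture of bulk cells, so a stronger peak in each cell and a peak in more of the cells cannot be told apart. The study describes its ChIP-seq replicates as independent biological ones, and the labels do not tie them to mice, so p-values measure the spread between these samples.

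p300 is a lysine acetyltransferase that is brought to enhancers and promoters by transcription factors and acetylates histones there, including lysine 27 of histone H3 (H3K27Ac). IL-4 signals through the IL-4 receptor and JAK kinases to phosphorylate STAT6, which moves to the nucleus and binds DNA as a dimer at the palindrome TTC and GAA separated by 4 bases. Other STAT dimers prefer the same arms separated by 3 bases. PU.1 is the ETS-family factor that marks most macrophage enhancers. HDAC1, HDAC2 and HDAC3 are histone deacetylases. Serine 5 phosphorylated RNA polymerase II (RNAPII-pS5) marks initiation and serine 2 phosphorylated polymerase (RNAPII-pS2) marks elongation.

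A peak score is, for all antibodies but H3K27Ac, the peak caller's significance on a -log10 scale, and for H3K27Ac the normalized tag count in a region of 1001 bp. Read depth was not given, so the number of called peaks stands in for it. The p300 ctrl replicate 1 stood apart, with 44787 peaks of median score 11, whereas the other 3 p300 samples held 66710 to 69360 peaks with medians of 18.2 to 19.2. Membership was therefore decided mainly by ctrl replicate 2. Without ctrl replicate 1 the rule gave 7651 regions, and without ctrl replicate 2 it gave 20215. When each p300 sample was cut to its 44787 strongest peaks, 4659 regions qualified, of which 2779 (59.6%) overlapped a gained region, equal to 37.6% of the gained regions. For RNAPII-pS2 at 1 hr, the peak names inside each file carried the treatment opposite to that of the sample labels. The labels were kept, and no direction of RNAPII-pS2 at 1 hr was read as an effect of IL-4. The labels of the HDAC3 samples give ab4729, the catalogue number that the labels also give for the H3K27Ac antibody. The study's ChIP-seq methods likewise give ab4729 for both, whereas its reagent table lists a different number for HDAC3. Which number is right was not tested. Promoters of 8 of 8 macrophage markers carried a RNAPII-pS5 peak in both untreated samples, and 4 of 8 an H3K27Ac region. None of the 4 T cell, 4 B cell, 4 neutrophil, 3 mast cell and basophil and 3 fibroblast markers carried either.

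The sequences of 13 gained sites are given first. They are 100 bp windows of mm10, plus strand, at the middle of the highest p300 peak of a region. Except for Tex2, they are shown because they carry a match to the STAT6 palindrome. That match recurred at the strongest members and at members near known IL-4 target genes. Capitals mark the palindrome with 4 bases between its arms, except at Tex2, where the arms are 3 bases apart. The first 7 belong to the 12 members with the highest p300 scores.
Abra (chr15:42219512-42219611): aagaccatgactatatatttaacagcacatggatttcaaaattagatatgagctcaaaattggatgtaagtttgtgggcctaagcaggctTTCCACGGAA
Prep (chr10:44945289-44945388): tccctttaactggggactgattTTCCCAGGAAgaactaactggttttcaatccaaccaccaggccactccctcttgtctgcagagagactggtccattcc
Tex2 (chr11:106575831-106575930): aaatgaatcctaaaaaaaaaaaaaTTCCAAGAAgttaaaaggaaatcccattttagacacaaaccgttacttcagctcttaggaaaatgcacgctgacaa
Cry1 (chr10:85266428-85266527): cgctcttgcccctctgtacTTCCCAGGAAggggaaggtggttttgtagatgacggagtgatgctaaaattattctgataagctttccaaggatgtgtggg
Olfm1 (chr2:28223134-28223233): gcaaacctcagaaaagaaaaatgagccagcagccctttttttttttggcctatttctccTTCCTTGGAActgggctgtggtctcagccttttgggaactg
Mpp6 (chr6:50075491-50075590): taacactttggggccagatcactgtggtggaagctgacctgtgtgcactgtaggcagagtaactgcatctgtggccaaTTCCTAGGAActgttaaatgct
Stard3nl (chr13:19393227-19393326): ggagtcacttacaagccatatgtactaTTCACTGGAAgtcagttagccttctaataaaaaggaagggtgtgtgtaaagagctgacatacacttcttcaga
Cish (chr9:107307977-107308076): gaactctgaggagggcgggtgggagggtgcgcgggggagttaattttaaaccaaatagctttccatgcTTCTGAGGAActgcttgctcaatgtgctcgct
Edn1 (chr13:42292210-42292309): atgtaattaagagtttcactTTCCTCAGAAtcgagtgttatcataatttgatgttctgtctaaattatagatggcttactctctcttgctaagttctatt
Socs1 (chr16:10745396-10745495): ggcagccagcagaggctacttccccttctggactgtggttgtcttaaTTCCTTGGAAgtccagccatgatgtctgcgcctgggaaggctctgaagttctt
Ccl2 (chr11:82011895-82011994): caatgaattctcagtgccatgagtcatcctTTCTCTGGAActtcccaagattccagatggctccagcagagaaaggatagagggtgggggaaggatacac
Retnla (chr16:48842413-48842512): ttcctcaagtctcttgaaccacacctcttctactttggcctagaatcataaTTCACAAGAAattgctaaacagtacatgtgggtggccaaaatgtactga
Tgm2 (chr2:158154121-158154220): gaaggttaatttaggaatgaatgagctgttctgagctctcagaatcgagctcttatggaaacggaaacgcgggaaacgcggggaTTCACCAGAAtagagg

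Across the gained regions, 38.7% (2862 of 7394) held the STAT6 palindrome on either strand in the 200 bp around the peak middle, against 10.2% of all merged regions and 6.87% of the 40457 regions with a peak in all 4 p300 samples. Of the 690 regions with a peak in both ctrl and in neither 1hIL4 sample (lost regions), 4 (0.580%) held it. The shares differed with the spacing of the arms. With 1, 2, 5, 6 or 7 bases between TTC and GAA, between 6.59% and 8.70% of the gained regions had a match, against 6.15% to 7.01% of all regions. With 3 bases, the spacing of other STAT dimers, the share was 18.0% against 8.35%. The shares at 3 and 4 bases are not exclusive, since a window can hold both. No test was run on any motif share.

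The palindrome followed the p300 score. The gained regions were divided into quartiles of about 1849 by their mean log2 p300 score over both 1hIL4 samples, and 18.0%, 28.7%, 43.6% and 64.5% of them held a match from the lowest to the highest quartile. Of the 100 strongest members 84 held it, and of the 12 strongest 11. In the highest quartile the matches were concentrated at the peak middle, with 13.7 matches per 100 regions in the 20 bp beside it, against 0.769 in regions with a peak in all 4 samples. Over the whole merged region, whatever its width, 45.8% of gained and 19.3% of all regions held a match.

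**Figure D1:**
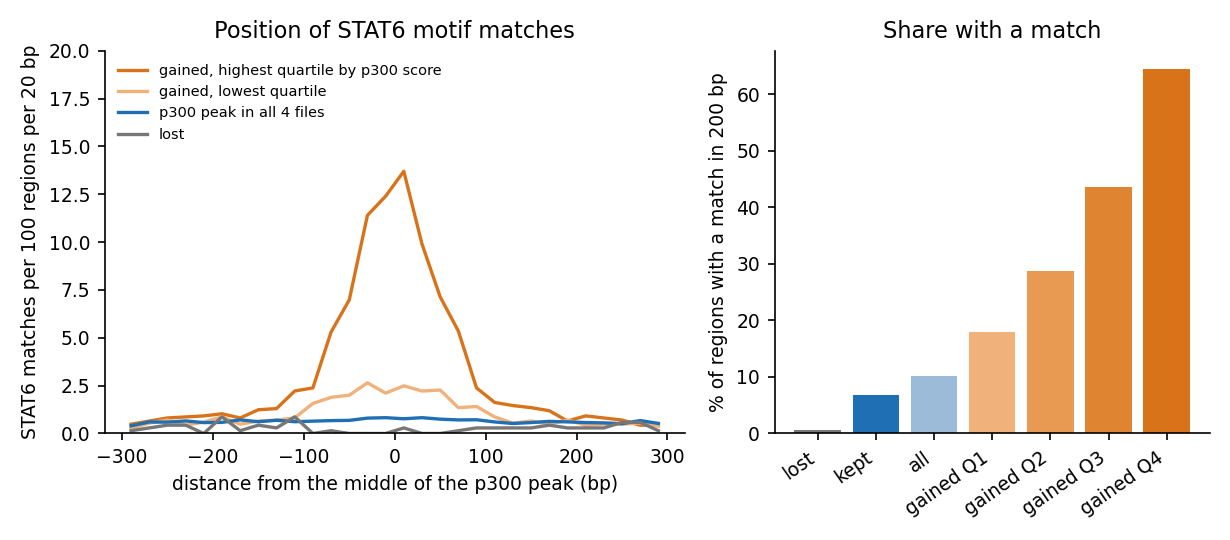
Left, matches to the STAT6 palindrome per 100 regions in bins of 20 bp by distance from the p300 peak middle (bp), for the highest and lowest quartile of gained regions, regions with a peak in all 4 samples and lost regions. Right, percent of regions with a match in 200 bp, which rose from 18.0% in the lowest (Q1) to 64.5% in the highest quartile (Q4) of gained regions, against 6.87% where p300 was in all 4 samples (kept).

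Motifs of the other factors searched were at gained sites at shares similar to or below those of all regions. The PU.1 motif GAGGAAGT was in 8.05% of gained and 9.93% of all regions, and the AP-1 motif TGACTCA in 9.22% and 13.6%. The lost regions held the AP-1 motif in 23.5%. The C/EBP palindrome TTGCGCAA was found in 0.0676% of gained and 0.183% of all regions, and the C/EBP motif TTGCAAT in 2.39% and 2.36%. RUNX (TGTGGTTT) was found in 4.15% and 4.04%, EGR (GCGTGGG) in 1.95% and 2.06%, and the MITF/TFE motif CACGTGAC in 0.622% and 0.911%. The ETS-IRF composite (GGAA and GAAA with 2 bases between) was in 5.53% and 6.29%. The NF-kB motif (GGGA and TTCC with 2 bases between) was in 1.58% and 1.47%. The gained windows had a median GC content of 44.5%, against 47.0% in all regions, and of 46.5% in the lowest and 43.5% in the highest quartile. The part of base composition in the motif shares was not tested.

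The p300 scores are the values that chose the members and are given as a description. The score was 10.07 in 1hIL4 replicate 1 and 9.89 in replicate 2 at the median gained region, and ranged from 1.80 to 328.90 and from 1.76 to 332.17. At 89.6% of gained regions the 2 scores were within 2-fold of each other. Both scores reached 10 at 41.3% of members, 20 at 1657 (22.4%), 50 at 573 (7.75%), 100 at 167 and 200 at 19. Of the lost regions, 17 had both ctrl scores at 10 or more and 0 at 20 or more. These steps are not on the scale of the gained ones, since scores in ctrl replicate 1 ran lower. At regions with p300 in all 4 samples its median was 12.25, against 38.45 in ctrl replicate 2. Just outside the rule stood 12945 regions with a peak in both 1hIL4 samples and in 1 ctrl sample, with medians of 9.99 and 10.10. In 12688 of these the ctrl peak was in replicate 2, with a median score of 8.97. A further 2861 and 3994 regions had a peak in only 1hIL4 replicate 1 or only replicate 2, with medians of 5.12 and 4.91. Regions with p300 in all 4 samples had medians of 34.16 and 34.92 in the 1hIL4 samples, so the typical member scored lower than these.

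**Figure D2:**
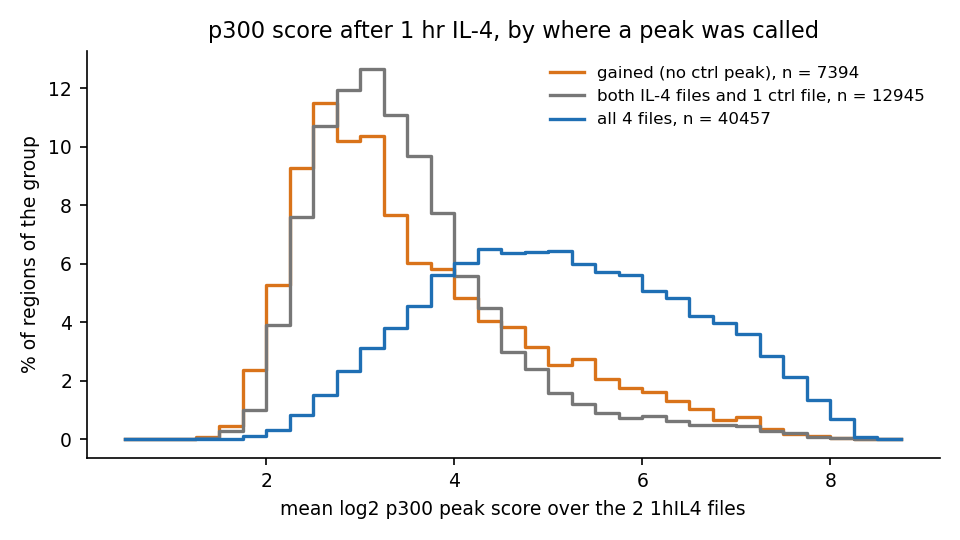
Distribution of the mean log2 p300 score over both 1hIL4 samples for gained regions, for regions with a peak in both 1hIL4 and 1 ctrl sample, and for regions with a peak in all 4 samples (percent of each group's regions). The gained regions overlap the group just outside the rule over most of the range and extend further to the right.

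The 12 strongest members lay mostly far from promoters. The strongest was an intergenic site 350 kb upstream of Abra (chr15:42219217-42219948), whose product binds actin, with scores of 328.90 and 332.17. The next was a site in intron 7 of Vti1a, which encodes a vesicle SNARE, at 305.86 and 302.73. The site near Prep, which encodes prolyl endopeptidase, scored 250.06 and 265.79. A site 81.4 kb upstream of Cry1, a circadian repressor, scored 236.16 and 236.75, and one in the last intron of Olfm1, which encodes a secreted olfactomedin, 237.26 and 219.36. The site near Spry1, an inhibitor of receptor tyrosine kinase signalling, lay in the last intron of Spata5 at 223.71 and 224.21. In each of these the replicate scores differed by less than 2-fold. The remaining 6 were annotated to 4933417E11Rik, Tex2, Lace1, Lpp, Mpp6 and Stard3nl. At the site in intron 4 of Lpp the palindrome lay outside the 100 bp window but inside 200 bp.

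Of the gained regions, 45.9% were intronic and 43.6% intergenic, against 45.0% and 40% of all merged regions. Promoters held 5.86% of gained regions and 10.4% of all, and 8.97% against 14.0% lay within 1 kb of a transcription start site (TSS). The median distance to the nearest TSS was 23017 bp, against 18669 bp. Proximity to a TSS differed with the p300 score, with 15.6% of the lowest quartile and 3.52% of the highest within 1 kb, and 3 of the 100 strongest members lay that close. Gained regions were narrower than regions with p300 in all 4 samples, at a median of 400 bp against 654 bp. The nearest region with p300 in all 4 samples was at a median of 8.42 kb, and within 10 kb for 55.1%. Another gained region was within 10 kb for 18.1%.

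The nearest-gene annotation assigned the gained regions to 4748 of the 16454 genes with any merged p300 region (28.9%). Of these genes 3284 had 1 gained region. The most were assigned to H2afy3 with 18 of 60 regions, Zfp608 with 13 of 71, Socs1 with 11 of 24 and Inhba, which encodes the activin A subunit, with 10 of 27. Hhip, an inhibitor of Hedgehog signalling, had 9 of 16 and Cables1 8 of 12.

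Among the 7 other antibodies profiled in the same 1 hr comparison, PU.1 was the one most often found at the gained p300 sites. PU.1 had a peak at 18.4% and 14.6% of gained regions in the 2 ctrl samples and at 31.6% and 33.7% in the 2 1hIL4 samples. Over all merged regions the shares were 50.3% and 44.9% in ctrl and 50% and 51.7% in 1hIL4. At the gained sites both 1hIL4 samples were thus above both ctrl samples, while at all regions the groups overlapped. An exact permutation test of 2 against 2 samples cannot give a p below 0.333, so no such test was run on these shares.

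H3K27Ac and RNAPII-pS5 were found at fewer members and also at more of them after IL-4. H3K27Ac covered 7.14% and 7.20% of gained regions in ctrl and 12.9% and 12.8% in 1hIL4, against 36.1% and 36.3%, and 35.2% and 35.1%, of all regions. RNAPII-pS5 covered 8.75% and 7.32% in ctrl and 12.1% and 11.2% in 1hIL4, whereas at all regions it went from 37.1% and 32.2% to 32.9% and 31.1%. For both marks the 1hIL4 samples were higher than the ctrl samples at gained sites and not at all regions. These shares count regions, and 1 wide peak of H3K27Ac or RNAPII can cover several p300 regions.

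The deacetylases were rarely seen. HDAC1 had a peak at 4.57% and 3.94% of gained regions in ctrl and at 5.99% and 5.50% in 1hIL4. HDAC2 went from 1.31% and 1.18% to 9.22% and 4.34%. HDAC3 went from 0.189% and 0.108% to 3.18% and 2.12%. In each case both 1hIL4 samples were above both ctrl samples. Over all regions HDAC1 was lower after IL-4 (34.0% and 29.6% to 26.5% and 25.3%) and HDAC3 went from 14.5% and 10.2% to 16.4% and 14.4%. The HDAC2 shares over all regions overlapped between groups, at 27.6% and 24.7% in ctrl and 32.6% and 23.3% in 1hIL4. The 2 HDAC2 1hIL4 samples held 28017 and 19683 peaks, and the part of this gap in their unequal shares was not tested.

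As labelled, RNAPII-pS2 differed from the other 6 antibodies. In the samples labelled ctrl it had a peak at 4.15% and 5.19% of gained regions, and in those labelled 1hIL4 at 3.04% and 3.56%. The peak names in these files carry the opposite treatment, as stated above, and by those names the shares after IL-4 were the higher ones, as for the other 6.

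**Figure D3:**
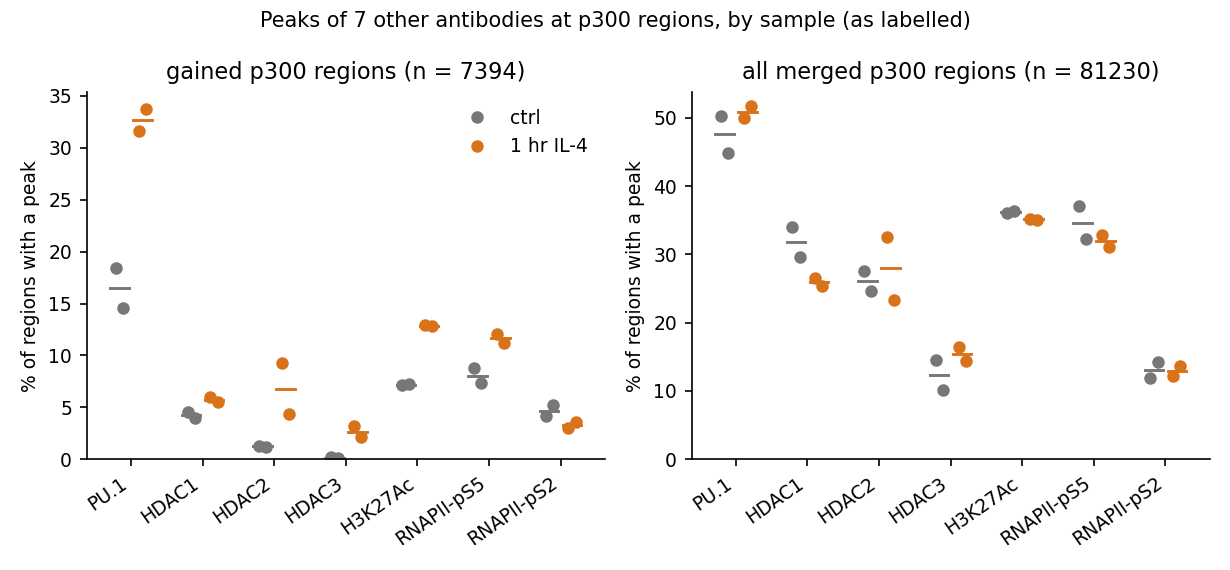
Percent of p300 regions with a peak of each other antibody, 1 point per sample and a bar at the mean of 2 samples, at gained regions (left) and at all merged regions (right). PU.1, H3K27Ac, RNAPII-pS5 and the 3 HDACs have both 1hIL4 points above both ctrl points at gained regions. RNAPII-pS2 is plotted as labelled.

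At single members, the same pattern as for p300, a peak in both 1hIL4 and in neither ctrl sample, was seen for PU.1 at 687 gained regions (9.29%), against 2.73% of all regions. It was seen for H3K27Ac at 293 (3.96% against 1.78%) and for RNAPII-pS5 at 168 (2.27% against 1.37%). For the deacetylases the shares at gained and all regions were close, at 0.920% and 0.906% for HDAC1, 2.18% and 2.15% for HDAC2 and 1.49% and 1.95% for HDAC3. The opposite pattern, both ctrl and neither 1hIL4 sample, was seen at 20 gained regions for PU.1 (0.270% against 1.09% of all regions). It was seen at 13 for H3K27Ac (0.176% against 2.04%) and 6 for RNAPII-pS5 (0.0811% against 2.16%). For the deacetylases it was seen at 32 for HDAC1 (0.433% against 3.14%), 4 for HDAC2 (0.0541% against 1.3%) and 1 for HDAC3 (0.0135% against 0.419%). For RNAPII-pS2 as labelled, 62 gained regions were in both ctrl only (0.839% against 1.27%) and 9 in both 1hIL4 only (0.122% against 1.07%). No peak of any of the 7 antibodies was found in any sample at 3168 gained regions (42.8%), against 22.1% of all regions.

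These joint gains were concentrated in the members with the strongest p300. PU.1 was gained with p300 at 2.76% of the lowest quartile and 22.6% of the highest, H3K27Ac at 1.3% and 11.3%, and RNAPII-pS5 at 0.379% and 7.14%. HDAC2 was gained at 0.324% of the lowest and 7.68% of the highest quartile, HDAC3 at 0 and 5.57%, and HDAC1 at 0.108% and 3.30%. Peaks present in all 4 samples ran the other way, from 10.9% to 1.3% for H3K27Ac and from 12.8% to 1.24% for RNAPII-pS5. For PU.1 that share stayed between 8.38% and 10.6%. The STAT6 palindrome was in 52.4% of the members where PU.1 was gained too, in 22.4% of those with PU.1 in all 4 samples and in 41.5% of those with no PU.1 peak. The corresponding shares were 61.1%, 14.5% and 39.8% for H3K27Ac and 64.3%, 11.6% and 40.3% for RNAPII-pS5. By p300 score alone, 18.0% of the lowest and 64.5% of the highest quartile held the palindrome. The part of the p300 score in these splits was not tested.

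**Figure D4:**
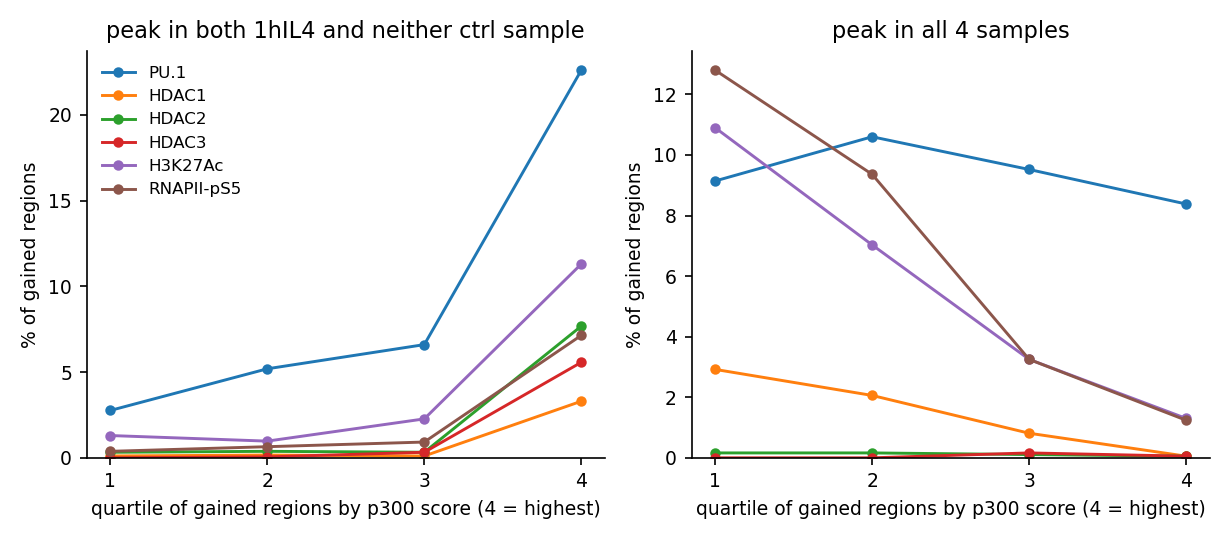
Percent of gained p300 regions in each quartile of p300 score (1 lowest, 4 highest) where 6 other antibodies had a peak in both 1hIL4 and in neither ctrl sample (left) or in all 4 samples (right). The left lines rise most towards the highest quartile, to 22.6% for PU.1, and the right lines of H3K27Ac and RNAPII-pS5 fall.

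At 16 members (0.216%), 5 of the 7 other antibodies were gained with p300. Among all merged regions, 61 (0.0751%) gained 5 of these antibodies, whether or not p300 was gained. Another 11 (0.0135%) gained 6 of them, and none of those was a gained p300 region. All 16 were in the highest quartile, at rank 127 or better by p300 score, and 14 held the STAT6 palindrome. HDAC2 was gained at 16 of them, RNAPII-pS5 at 15, HDAC1 at 14, PU.1 and H3K27Ac at 12 and HDAC3 at 11. At the Abra site, HDAC2 scored 20.22 and 14.66, HDAC3 16.76 and 12.72, RNAPII-pS5 12.26 and 13.82 and H3K27Ac 36.40 and 34.70 tags in the 1hIL4 samples, with no ctrl peak of any of these 4. PU.1 there had a peak of 6.75 in ctrl replicate 1 and of 44.47 and 35.98 in 1hIL4. At the site in intron 1 of Nfkb1, which encodes the p105 and p50 NF-kB subunits, PU.1 scored 27.43 and 27.64, HDAC1 5.30 and 5.99, HDAC2 7.80 and 8.59, HDAC3 8.37 and 7.01 and RNAPII-pS5 8.79 and 9.47 in 1hIL4. None of these 5 had a peak there in ctrl. The others included sites near Socs1, Spry1, Tfrc, which encodes the transferrin receptor, Gpr84, a receptor for medium-chain fatty acids, and Dnase1l3, a secreted DNase.

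Where an antibody had a peak in all 4 samples, its scores were compared between 1hIL4 and ctrl with limma over all such merged p300 regions. Of the gained regions 695 passed this filter for PU.1, 415 for H3K27Ac, 492 for RNAPII-pS5, 154 for RNAPII-pS2, 108 for HDAC1, 9 for HDAC2 and 4 for HDAC3, so these counts speak for a small share of the 7394. Scores were centred on the regions in all 4 samples. The shift removed by centring was 0.34 for PU.1, -0.32 for HDAC1, 0.29 for HDAC3 and -0.11 for RNAPII-pS5 on the log2 scale.

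PU.1 was higher in 1hIL4 at 123 of the 695 tested members (17.7%) at an unadjusted limma p of 0.05, where 7.37% of all tested regions were, and lower at 8, where 3.57% were. At a Benjamini-Hochberg adjusted p of 0.05, 26 were higher and 0 lower, with backgrounds of 1.62% and 0.115%. The median difference was 0.30 on the log2 score scale at tested members and 0.02 over all tested regions, and by quartile it was 0.02, 0.14, 0.31 and 0.94. Without 1hIL4 replicate 2 the count higher was 73 of 727 (background 4.11%), and without ctrl replicate 1 the count lower was 15 of 842 (background 4.86%). An intergenic site annotated to Gm20125 (chr10:16746351-16747142) had PU.1 scores of 5.01 and 2.94 in ctrl and 111.40 and 64.73 in 1hIL4. This was a rise of 4.13 on the log2 scale (SE 0.51, limma adjusted p = 1.62e-09). In intron 1 of Lcp1, which encodes the actin-bundling protein L-plastin, the scores were 15.63 and 6.20 in ctrl and 104.32 and 94.51 in 1hIL4 (log2 difference 3.0, SE 0.40, adjusted p = 2.14e-08). A site 4.42 kb upstream of Txnip, the thioredoxin-interacting protein, went from 26.13 and 22.90 to 104.97 and 86.41 (1.63, SE 0.32, adjusted p = 3.97e-04). The groups did not overlap at any of these 3 members. Of the members with lower PU.1, the smallest p was at a site near Slc7a13, at 16.93 and 17.31 in ctrl and 6.18 and 7.26 in 1hIL4, with an adjusted limma p of 0.158.

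H3K27Ac was higher at 177 of 415 tested members (42.7%) and lower at 32 (7.71%) at the unadjusted limma threshold, while over all tested regions 27.5% were higher and 32.1% lower. With adjustment the counts were 157 and 31, and the backgrounds 25.3% and 30.2%. The median log2 difference was 0.19, against -0.01 over all tested regions. The replicates of H3K27Ac differed by a median of only 0.11 on the log2 scale at these members, so small differences passed. At the Olfm1 site H3K27Ac went from 17.80 and 19.40 to 102.30 and 105.20 tags (log2 difference 2.53, SE 0.13, limma adjusted p = 1.03e-29). At the promoter of Batf3, an AP-1 family factor, it went from 39.90 and 33.10 to 125.20 and 118.40, and at that of Ceacam19 from 61.10 and 57.80 to 202.00 and 201.70. By p300 score these members ranked 5041 and 3542 of 7394. The falls were smaller, the strongest call being in intron 1 of Rassf2, from 641.00 and 603.30 to 387.10 and 383.60 (-0.64, SE 0.05, adjusted p = 1.40e-18).

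RNAPII-pS5 was higher at 86 of 492 tested members (17.5%) and lower at 11 (2.24%) at the unadjusted limma threshold, against 9.63% and 7.49% of all tested regions. After adjustment 18 were higher and 1 lower, with backgrounds of 1.31% and 0.638%. Without centring 35 were higher and 9 lower, with backgrounds of 3.06% and 5.86%, and without 1hIL4 replicate 2 the count lower was 6 of 505 (background 7.03%). The median log2 difference was 0.19, against 0.03, and rose from 0.15 in the lowest to 0.91 in the highest quartile. At 2 adjacent members in the promoter of G630025P09Rik, which share 1 RNAPII-pS5 peak in each 1hIL4 sample (scores 103.70 and 97.61), the ctrl scores were 13.67 and 6.80 at the nearer one (limma adjusted p = 4.86e-07) and 67.06 and 31.52 at the other (adjusted p = 0.00195). A site upstream of Slc22a12 rose from 5.33 and 3.61 to 43.52 and 29.02 (3.13, SE 0.39, limma adjusted p = 2.56e-04). The member lower after adjustment was a site 1.28 kb upstream of Cltc, the clathrin heavy chain, at 64.41 and 51.21 in ctrl and 22.69 and 22.34 in 1hIL4 (-1.24, SE 0.22, adjusted p = 0.00871).

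For the deacetylases few members could be tested. HDAC1 was higher at 2 and lower at 5 of 108, with backgrounds of 4.41% and 3.48% at the unadjusted limma threshold. Without centring 2 were higher and 12 lower, with backgrounds of 0.937% and 10.4%. Leaving out 1hIL4 replicate 1, 1hIL4 replicate 2 or ctrl replicate 2 gave 4, 7 and 7 higher (backgrounds 3.48%, 3.74% and 4.40%), and leaving out 1hIL4 replicate 2, ctrl replicate 1 or ctrl replicate 2 gave 8, 8 and 2 lower (backgrounds 3.78%, 2.68% and 2.08%). In intron 1 of Lipa, which encodes lysosomal acid lipase, HDAC1 went from 2.40 and 3.51 to 9.52 and 8.35 (1.94, SE 0.49, limma adjusted p = 0.0465). That member is the last of all 7394 by p300 score. At the promoter of Fanca it went from 16.10 and 14.58 to 4.39 and 5.90, with an adjusted p of 0.381. HDAC2 was higher at 1 of 9 and lower at 0, with backgrounds of 4.58% and 3.71%. That site, in intron 1 of Morrbid and annotated to Gm14005, had HDAC2 scores of 6.06 and 2.28 in ctrl and 20.75 and 17.16 in 1hIL4 (2.27, SE 0.48, limma adjusted p = 0.00558). HDAC3 was higher at 1 of 4 and lower at 0, with backgrounds of 7.38% and 7.15%. The HDAC3 site, in intron 2 of Atxn1, did not pass adjustment (adjusted p = 0.254), and leaving out 1hIL4 replicate 2 or ctrl replicate 1 left 0 higher. Leaving out either ctrl replicate gave 2 higher for HDAC2 (backgrounds 4.30% and 4.20%), and leaving out 1hIL4 replicate 2 or ctrl replicate 1 gave 1 lower (4.75% and 3.04%). Leaving out ctrl replicate 1 gave 1 lower for HDAC3 (background 6.4%).

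For RNAPII-pS2 as labelled, 11 of 154 tested members were higher and 12 lower in 1hIL4, with backgrounds of 8.30% and 5.78% at the unadjusted limma threshold. Without centring the counts were 4 and 10, with backgrounds of 5.25% and 5.21%, and without 1hIL4 replicate 1 or 2 the count higher was 7 (backgrounds 5.11% and 7.31%). At a site near Hnrpll, RNAPII-pS2 scored 41.64 and 54.45 in the samples labelled ctrl and 15.86 and 15.75 in those labelled 1hIL4. RNAPII-pS5 at the same site had no peak in ctrl and scored 17.77 and 24.44 in 1hIL4. The 2 polymerase forms thus ran in opposite directions there as labelled, and in the same direction by the peak names.

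Genes of the IL-4 response list, 33 genes commonly induced in alternatively activated macrophages, held 55 gained sites among 380 merged regions (14.5%), where 9.10% of all regions were gained. They lay at 23 of the 31 listed genes with a p300 region (74.2%), against 28.9% of all genes with one. The listed genes also held more merged regions each (380 at 31 genes, against 81230 at 16454), which raises the chance of holding a gained one. Of the 55, 24 (43.6%) were in the highest quartile of p300 score, which by construction holds 1849 of the 7394 gained regions. The STAT6 palindrome was in 24 of the 55 (43.6%), near the 38.7% of all gained regions. Socs1, the feedback inhibitor of JAK kinases, had the most, with 11 gained of 24 regions. The highest of these, at the 3' end of Clec16a and 40.1 kb from the Socs1 TSS (chr16:10745067-10745833), had p300 scores of 149.65 and 164.44. There PU.1 scored 18.99 and 25.51, HDAC1 4.73 and 11.63, HDAC2 11.73 and 10.47, RNAPII-pS5 8.25 and 8.52 and H3K27Ac 47.70 and 48.60 tags in 1hIL4, and none of the 5 had a peak in ctrl. Another 4 of them, in introns of Clec16a, had p300 scores from 44.52 to 113.89.

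Cish, which encodes another inhibitor of the SOCS family, had 2 gained of 5 regions. The stronger, 11.3 kb from its TSS, scored 211.04 and 212.08 for p300, and no PU.1 peak was called there in any 1 hr sample. Edn1, which encodes the precursor of endothelin-1, had 3 of 23, the strongest 9.01 kb upstream at 210.00 and 211.22 with PU.1 at 8.56 and 16.00 in 1hIL4 only. The site 23.6 kb upstream of Ccl2, the monocyte chemoattractant, scored 76.50 and 80.45, with PU.1 at 13.61 and 16.12 in 1hIL4 only. At Retnla, which encodes the secreted protein RELM-alpha, 1 of 2 gained sites was the promoter itself (chr16:48842142-48842781) at 56.05 and 53.87. In intron 2 of Ptgs1, the cyclooxygenase COX-1, p300 scored 89.36 and 84.32 and PU.1 17.80 and 12.27. The site upstream of Tgm2, transglutaminase 2, scored 39.61 and 44.06. PU.1 had a peak at the Tgm2 site in 1hIL4 only too (5.24 and 10.39), and none at the Retnla promoter. Of these 6 sites, 4 held PU.1 in both 1hIL4 samples and in neither ctrl sample. That pattern was seen at 9.29% of all gained regions and at 22.6% of the highest quartile, where all 6 sites lie. The 6 are strong members chosen for the text, and the share over the whole list was not counted.

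Other gene groups held gained sites at shares nearer the 9.10% of all regions. IL-4 signalling and feedback genes had 21 of 187 (11.2%), of which 13 were those of Socs1 and Cish. Inflammatory genes had 22 of 271 (8.12%), among them sites near Tlr4, the LPS receptor, at 96.81 and 67.58, and in intron 1 of Nfkb1 at 111.90 and 127.39. Immediate early and growth genes had 33 of 409 (8.07%), lipid and nuclear receptor genes 15 of 196 (7.65%), macrophage identity genes 20 of 289 (6.92%) and chromatin genes 7 of 112 (6.25%). A site in intron 2 of Csf1r, the receptor for macrophage colony-stimulating factor, was gained by p300 at 58.48 and 67.26. RNAPII-pS5 was already there in ctrl at 42.73 and 39.03 and scored 39.43 and 38.54 after IL-4. In intron 2 of Abcg1, a cholesterol efflux transporter, p300 scored 92.79 and 83.20 and PU.1 8.09 and 24.27 in 1hIL4 only.

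The expression clusters that the study defined from RNA of IL-4-treated BMDMs were compared by region and by gene. Of the regions annotated to genes of the IL-4-induced clusters A, B, C and D, 21.1%, 17.0%, 14.0% and 8.80% were gained, and of those annotated to the IL-4-repressed cluster E 5.76% (323 of 5611). At least 1 gained region lay at 64.5%, 71.4%, 63.9%, 35.1% and 32.3% of the genes of clusters A to E with a p300 region, against 28.9% of all such genes. By gene, cluster B was thus above cluster A, and the repressed cluster E was not below all genes. By region, cluster E was below the 9.10% of all regions. The cluster E genes held more merged regions each (5611 at 598 genes, against 81230 at 16454), which raises the chance of holding a gained one. The clusters come from the same study and cell system and are not independent of it. Cluster A members included the promoter site of Hebp2, which encodes a heme-binding protein, at 143.60 and 160.11. There RNAPII-pS5 (17.56 and 13.19), HDAC1 (9.35 and 7.31) and HDAC2 (11.87 and 10.15) had 1hIL4 peaks only. Cluster E members included sites near Sash1 at 199.98 and 157.20 and in an intron of Thada, annotated to Zfp36l2, at 107.04 and 104.32.

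In the second experiment, the gained sites were looked up after 24 hr of IL-4 and after LPS. RNAPII-pS5 had a peak at 3.79% and 3.16% of gained regions without treatment and at 4.83% and 5.36% after 24 hr of IL-4, while all regions went from 21.2% and 19.7% to 21.5% and 22.3%. RNAPII-pS2 had one at 4.10% and 3.99% without treatment and at 5.15% and 6.00% after IL-4, against 28.8% and 28.6%, and 26.1% and 27.4%, of all regions. Both forms were thus at more gained sites after 24 hr of IL-4 in both samples. For RNAPII-pS5 both IL-4 samples were above both untreated samples over all regions too. In the highest quartile RNAPII-pS5 went from 0.865% and 0.811% to 4.92% and 5.90%, and RNAPII-pS2 from 1.41% and 1.41% to 7.57% and 8.17%. In the lowest quartile RNAPII-pS5 was at 6.65% and 5.62% without and 5.90% and 6.65% with IL-4, with overlap between groups. RNAPII-pS2 ran the other way there, at 6.98% and 7.14% without and 5.19% and 6.49% with IL-4. At the Retnla promoter RNAPII-pS5 had no peak without treatment and scored 73.71 and 82.15 after 24 hr of IL-4, and RNAPII-pS2 54.93 and 57.84. After IL-4 followed by LPS these were 11.63 and 13.46 for RNAPII-pS5 and 6.63 and 11.83 for RNAPII-pS2.

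p65, the NF-kB subunit that enters the nucleus after LPS, was at more gained sites when 24 hr of IL-4 preceded LPS than after LPS alone. It had a peak at 0.893% and 0.744% of gained regions without treatment, at 1.41% and 1.28% after 24 hr of IL-4, at 5.55% and 5.72% after LPS, and at 14.2% and 14.7% after IL-4 and LPS. Over all merged regions the LPS samples gave 26.9% and 27.4%, and the samples with IL-4 and LPS 34.2% and 35.8%. The p65 lists themselves grew from 26305 and 26820 peaks after LPS to 36738 and 38955 after IL-4 and LPS, and the part of this in the gained regions was not tested. In the highest quartile the shares were 6.54% and 6.33% after LPS and 20.6% and 22.6% after IL-4 and LPS, and in the lowest quartile the second pair was 10.4% and 10.4%.

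A p65 peak in both IL-4 and LPS samples and in neither sample with LPS alone was found at 448 gained regions (6.06%), against 5.45% of all regions, and at 10.9% of the highest and 3.35% of the lowest quartile. Of the 448, 210 (46.9%) held the STAT6 palindrome, against 38.7% of all gained regions, 18.0% of the lowest quartile and 64.5% of the highest. The NF-kB motif was in 19 (4.24%), against 1.58% of all gained regions. The part of the p300 score in these shares was not tested. At the Cry1 site p65 had no peak with LPS alone and scored 48.74 and 49.48 with IL-4 and LPS. At Cish it scored 14.41 and 15.32 after 24 hr of IL-4 alone and 30.66 and 38.96 with LPS added, with no peak in the other 4 p65 samples. At the Ccl2 site it went from 5.55 and 11.94 with LPS to 31.83 and 29.97 with IL-4 and LPS. The site annotated to Zfp36l2 had 30.71 and 21.82, and 75.31 and 77.21. These 4 members were chosen for the text, and in each of them both samples with IL-4 and LPS exceeded both with LPS alone.

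**Figure D5:**
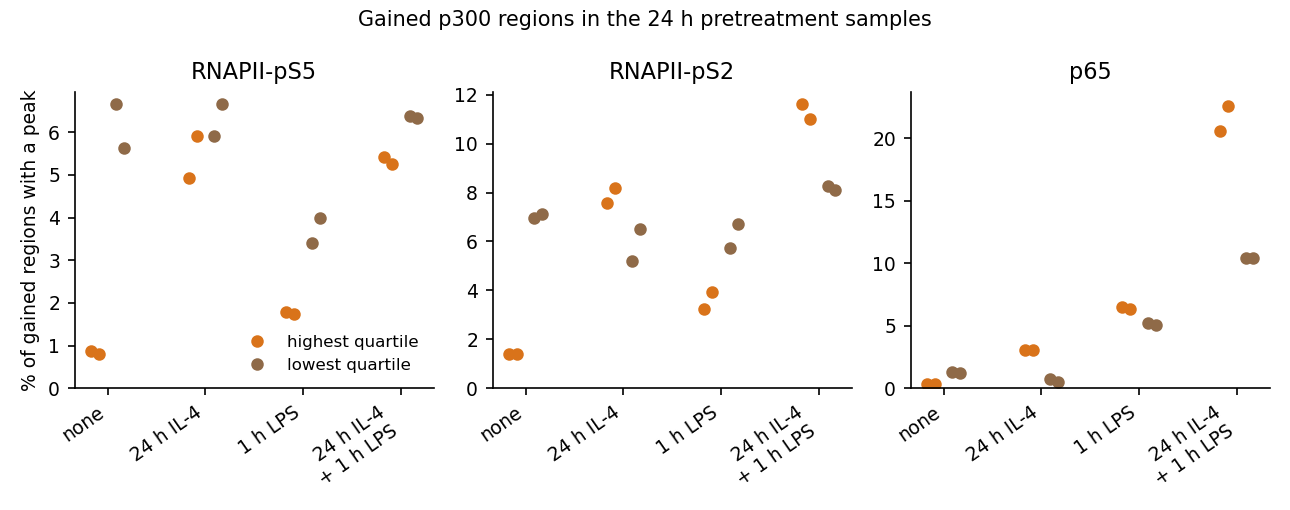
Percent of gained p300 regions with a RNAPII-pS5, RNAPII-pS2 or p65 peak in the 4 conditions of the 24 hr experiment, 1 point per sample, for the highest and lowest quartile by p300 score. In the highest quartile p65 stood at 6.54% and 6.33% after LPS and at 20.6% and 22.6% after IL-4 and LPS.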

How the data were processed

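The peak lists of 56 ChIP-seq samples (9 antibodies, 2 samples per group) were analysed as deposited. Per the study's methods and the submitters' processing notes, the authors aligned reads to mm10 with BWA 0.7.10, handled them with SAMtools 0.1.19, called peaks per sample with MACS2 2.0.10 and annotated them with HOMER 4.2. The deposited MACS2 score was taken as -log10 of a p or q value, since its type is not stated in the files. The deposited H3K27Ac value is a signal, the normalized tags counted by HOMER in regions of 1001 bp. Blacklisted regions had been removed by the authors. Because only called peaks were used, a region without a peak can still hold reads below the threshold, and read depth is unknown.

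Merging, overlaps (1 bp or more), location and motif counts were made in Python 3.11.15 with pandas 2.3.3. A region took the annotation of its highest p300 peak, and motif windows were read from the mm10 genome given. The gained regions, the gene lists and the tests were chosen with earlier results of these data known. Groups were taken from the sample labels.

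Other antibodies were tested with limma 3.58.1 (R 4.3.3, trend) on log2 of the highest overlapping score, 1hIL4 against ctrl (2 samples each), over every merged p300 region with a peak in all 4 samples, after centring each sample on the median of the antibody's own regions found in all 4. Calls were made at an unadjusted p of 0.05, the threshold the study's methods use for changed regions, with Benjamini-Hochberg values beside them. Tested on simulated data of the PU.1 comparison (29520 regions), 91 of 100 changes of 2 on the log2 scale and 60 of 100 changes of 1 were recovered. p300 itself was not tested, since it chose the members. The genes named are the 12 strongest members, members of the IL-4 response list in order of p300 score, the strongest members of the other lists, the top 3 per antibody and direction by limma p, and members gained with 5 other antibodies. A few members within these sets were picked for the text after their values were seen. Alternatives were another p300 peak number, overlap, motif window, centring, filter, adjustment, a replicate block and each sample left out. Of these, the depth-matched motif share was chosen after seeing the data.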

Additional observations from a re-analysis of the deposited data

Results flagged for a closer look

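RNAPII-pS2 at the gained p300 regions was singled out because, as labelled, its 2 experiments moved in opposite directions. In the 1 hr experiment 4.15% and 5.19% of gained regions had a RNAPII-pS2 peak in the samples labelled ctrl and 3.04% and 3.56% in those labelled 1hIL4. In the 24 hr experiment the shares were 4.10% and 3.99% without treatment and 5.15% and 6.00% after IL-4. As labelled, both IL-4 samples were below both ctrl samples at 1 hr and above both at 24 hr, and the difference between the experiments was not tested. For these 1 hr samples the treatment in the names of the RNAPII-pS2 peaks is the reverse of that in the labels. By the peak names the shares at 1 hr would be 3.04% and 3.56% in ctrl and 4.15% and 5.19% after IL-4, the same direction as at 24 hr. No direction at 1 hr is therefore read as an effect of IL-4. At the weaker Cish site RNAPII-pS2 scored 39.19 and 54.57 in the samples labelled ctrl with no peak in those labelled 1hIL4, while RNAPII-pS5 had no ctrl peak and scored 7.27 and 2.44 in 1hIL4. After 24 hr of IL-4 RNAPII-pS2 scored 10.80 and 14.51 there, with no peak in the untreated samples. Which of the labels and the peak names is right was not tested.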

How the results depend on the processing

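The count of 7394 gained regions moved to 4659 when each p300 sample was cut to as many peaks as the smallest held, and ran from 7651 to 20215 when each p300 sample was left out in turn. It was 5048 with the upper 50% of each p300 list by score, 7122 with peaks within 200 bp merged and 6480 with 1hIL4 peaks taken one by one, all within 1.5-fold. The 4659 members at equal peak numbers had promoters at 5.19%, sites within 1 kb of a TSS at 7.53% and the STAT6 palindrome at 45.5%, and any peak of PU.1 at 59.0%, HDAC1 21.7%, HDAC2 28.0%, HDAC3 10.2%, H3K27Ac 25.3%, RNAPII-pS5 20.6% and RNAPII-pS2 8.63%. With peaks within 500 bp the same shares of the 7394 were 46.6%, 14.9%, 15.4%, 5.02%, 20.5%, 17.7% and 9.35%. In 100 bp the motif shares were 27.7% for STAT6, 11.2% for STAT, 5.10% for PU.1, 6.06% for AP-1, 0.0270% and 1.19% for the C/EBP motifs, 1.14% for EGR, 3.33% for ETS-IRF, 2.37% for RUNX, 0.893% for NF-kB and 0.270% for MITF/TFE, as a window of 100 bp holds fewer matches by construction. With Benjamini-Hochberg adjustment the limma counts higher and lower were 26 and 0 for PU.1, 1 and 0 for HDAC1, 18 and 1 for RNAPII-pS5 and 1 and 2 for RNAPII-pS2, and 0 higher for HDAC3. Without centring, 1 was lower for PU.1, 12 lower for HDAC1, 35 higher for RNAPII-pS5 and 4 higher for RNAPII-pS2, and the cause was not tested. With missing peaks set to the lowest score, a region can pass through the group where it is high and the other group is filled in, so a call is partly built in and the counts support nothing. They are given for completeness beside a background of 6.93% higher and 3.28% lower for PU.1. Counts higher and lower were 540 and 15 of 3172 tested members for PU.1. Without a background given here, they were 54 and 17 for HDAC1, 48 and 1 for HDAC2, 52 and 1 for HDAC3 and 249 and 17 for RNAPII-pS5. For H3K27Ac 447 were higher, and for RNAPII-pS2 70 were lower. These unequal counts are therefore not read as gains or losses at the members. With each sample left out, counts higher ran from 73 to 163 for PU.1, 2 to 7 for HDAC1, 1 to 2 for HDAC2, 0 to 1 for HDAC3 and 7 to 10 for RNAPII-pS2, and counts lower from 7 to 15 for PU.1, 2 to 8 for HDAC1, 0 to 1 for HDAC2 and HDAC3 and 6 to 16 for RNAPII-pS5. The number tested and the background changed with the sample left out. For PU.1 the counts higher were 73 of 727 (background 4.11%) and 163 of 1023 (7.66%) at the ends. The counts lower were 7 of 729 (2.95%) and 15 of 842 (4.86%). The ranges are therefore not results about the members alone, and their cause was not tested. Read depth is unknown, so what it limits here could not be measured.

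The replicate numbers were not shown to pair the samples, since the deviations of same-numbered samples correlated at 0.00 to 0.08 over the 7 antibodies. With the replicate block in the fit all 14 counts stayed within 1.5-fold. For PU.1 131 of 695 members were higher, with a background of 8.11%. For H3K27Ac 181 of 415 were higher and for RNAPII-pS5 89 of 492, where the backgrounds without the block were 27.5% and 9.63%.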

Other observations

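Some further values on the location of the gained regions were not used in any comparison. The share of merged p300 regions that were gained ran from 7.78% on chromosome 7 and 7.79% on chromosome 17 to 10.6% on chromosome 18 and 11.4% on the X chromosome, and was 15.5% (16 of 103) on the Y chromosome. LTR elements were annotated at 10.9% of gained and 8.62% of all regions, LINEs at 5.59% and 5.12%, and SINEs at 4.02% and 4.08%. The windows of gained regions held a mean of 2.79 CpG dinucleotides per 200 bp, against 3.66 in all regions, and 3.95 in the lowest and 1.81 in the highest quartile by p300 score.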
